A study of Homo sapiens with 46 samples.

Results

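The nucleoplasmic RNA of ectoderm cells made in culture was compared with that of the human pluripotent stem cells (hPSCs) they came from. Nucleoplasm is the soluble part of the nucleus, which holds RNA released from chromatin and not yet exported. The 6 libraries of this comparison, 3 of ectoderm and 3 of hPSC, were taken by their column names from the study's 46 libraries, which cover cytoplasm, nucleus, nucleoplasm and chromatin of 4 cell types. The study grew H1, an established human embryonic stem cell line, and derived ectoderm, endoderm and mesoderm from it. The hPSC group was H1 kept in mTeSR1 on Matrigel. The ectoderm group was H1 held for 5 days in DMEM/F12 with non-essential amino acids, β-mercaptoethanol, 15% KOSR (knockout serum replacement) and 2 µM each of A83-01, PNU-74654 and Dorsomorphin. A83-01 blocks the receptors of Nodal, activin and TGF-β, PNU-74654 blocks β-catenin from acting with TCF factors, and Dorsomorphin blocks BMP receptors. Medium, supplements and inhibitors differed together between the groups, so their effects cannot be told apart. In both groups the nuclei were lysed with NP-40 and urea in buffers that held α-amanitin, an inhibitor of RNA polymerase II, and the supernatant was kept as nucleoplasm. Both groups are 1 cell line, and nothing says that the replicates were separate cultures, so p-values measure only the spread between these libraries.

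Pluripotent stem cells keep their state through transcription factors such as POU5F1, SOX2 and NANOG, and the human state needs Nodal or activin and FGF signals. When SMAD signalling is blocked, such cells tend to become neuroectoderm, the sheet that forms brain, spinal cord and eye, and without posterior signals it takes an anterior identity. Nuclear RNA follows transcription more closely than cytoplasmic RNA, because stable messages build up after export.

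The nucleoplasm libraries held 12549571 to 14053066 counts in hPSC and 8473955 to 16341050 in ectoderm. Mitochondrial genes took 11.3% to 12.2% of the gene counts in hPSC and 8.43% to 10.2% in ectoderm. In cytoplasm they took only 0.44% to 0.62% in hPSC and 1.03% to 1.59% in ectoderm. The nucleoplasm libraries thus also held RNA from outside the nucleus. Between replicates, Pearson's r of log2 values across genes was 0.9884 to 0.9938, and the counts of each of the 6 replicate pairs differed by more than counting error (lowest chi-squared per degree of freedom 6.286). Each cell type was counted on a transcript assembly of its own. The hPSC table listed 15115 Ensembl genes, 17713 were listed for ectoderm, and 13580 stood in both. Cell type and assembly therefore change together and cannot be told apart. A transcript listed in both tables does not remove this, because it was counted beside the other transcripts of each assembly.

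Of 13095 genes tested in both cell types, 10407 differed at an adjusted p under 0.05 (79.5% of those tested), by edgeR's quasi-likelihood test with Benjamini-Hochberg adjustment. In ectoderm, 5211 were higher and 5196 lower. With at least a 2-fold difference as well, 2760 were higher in ectoderm (21.1%) and 2610 lower (19.9%). The groups' 3 and 3 libraries did not overlap for 10565 genes (80.7%). Since most genes differed, size and the libraries' values say more than the call. Protein coding genes split almost evenly, with 4569 higher and 4856 lower of 11813. Among 732 long noncoding RNAs, 386 were higher and 174 lower (median log2 difference 0.78). Over all genes tested the median was -0.01.

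The largest falls included POU5F1 and TDGF1, both used as markers of the stem cell state. POU5F1, a homeodomain factor that holds cells pluripotent, stood at 1245, 1115 and 1155 CPM (counts scaled to the library's total over genes) in the hPSC libraries and 1.84, 1.95 and 2.17 CPM in ectoderm. That is a 607-fold fall (log2 -9.25, SE 0.12, adjusted p = 2.6e-19). TDGF1, a Nodal co-receptor, had 685, 694 and 658 CPM in hPSC and no count in any ectoderm library. Against a floor of 3 counts per library it was at least 2584-fold lower in ectoderm. The floor covers counting error only, and PCR copies are not independent molecules. The groups were far apart for both genes. POU5F1 lies at chr6:31164337-31180731 and TDGF1 at chr3:46574534-46582463 (GRCh38, GENCODE 29).

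ESRG, a noncoding RNA abundant in human stem cells, fell from 1924, 1942 and 2031 CPM to 12.8, 14.7 and 15.5 CPM. FOXH1, the DNA-binding partner of Nodal-activated SMADs, fell from 121, 126 and 148 to 2.23, 1.46 and 1.28 CPM. CXCL12, a chemokine, was at 73.5, 72.6 and 84.7 CPM in hPSC and at 3 counts or fewer in each ectoderm library, at least 293-fold lower. Noncoding RNAs took several of the largest falls. FOXD3-AS1, antisense to FOXD3, had 52.4, 59.1 and 47.5 CPM in hPSC and LNCPRESS1 had 47.8, 56.3 and 53.4 CPM, and neither had a count in ectoderm (at least 202-fold and 199.8-fold lower). HDAC2-AS2 fell from 807, 849 and 863 CPM to 1.08, 0.609 and 1.47 CPM. Its overlapping partner on the other strand, HDAC2, fell less, from 381, 324 and 362 to 195, 213 and 193 CPM. Whether the counting used strand is not given in the sources used here, so reads of overlapping partners cannot be told apart. TDGF1, POU5F1, ESRG, FOXH1, POLR3G, B3GALT5, BCL11A, RUNX1T1, TNFRSF8 and RARRES2 also overlap a gene on the other strand. Among the rises named below, so do EPHA4, ZBTB16, ZNF702P, GUSBP13, ZNF570, ZNF483, SENP7, SLCO1A2, ZNF678, ZNF260, FEZF1, MEG3 and MIR34AHG. Most list members were not examined for such overlap.

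The other large falls covered several functions. BCL11A and RUNX1T1, transcription regulators first known from blood, stood at 13.9, 16.5 and 12.4 and at 10.8, 11.8 and 12.5 CPM in hPSC and had no count in ectoderm, at least 54.4-fold and 44.6-fold lower. ST8SIA3 (a sialyltransferase) and SERF1A also had no count there, at least 73.8-fold and 93.2-fold lower. SERF1A has a near-identical copy, SERF1B, which rose from 9.85, 16.2 and 9.71 to 31.4, 27.5 and 29.7 CPM but gave -0.20 on its shared transcript, so the split between the copies is uncertain. With the ectoderm libraries counted on the combined assembly, SERF1A gave -3.44 (log2), well short of that bound. The split is as uncertain for the pseudogene PHC1P1 (84.9, 118 and 89.9 CPM in hPSC, 0, 0 and 0.32 CPM in ectoderm) and its parent PHC1, a Polycomb subunit that itself fell from 1076, 1149 and 1215 to 166, 181 and 168 CPM. The log2 difference of PHC1P1 was -9.45, and -2.59 on the combined assembly. TNFRSF8 (CD30), a surface receptor used as a stem cell marker, fell from 85.2, 93.2 and 93.4 to 0.0769, 0 and 0.448 CPM. Among the abundant genes, the log2 differences were -7.26 for B3GALT5 (a galactosyltransferase), -7.13 for CNMD (chondromodulin), -7.00 for POLR3G (a subunit of RNA polymerase III) and -6.74 for RARRES2 (chemerin).

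On the rising side, LRP2, an endocytic receptor needed for forebrain development, stood at 0.345, 0.229 and 0.597 CPM in hPSC and 602, 663 and 601 CPM in ectoderm (log2 10.52, SE 0.15, adjusted p = 3.8e-19). EPHA4, a receptor tyrosine kinase of axon guidance and tissue boundaries, rose from 1.38, 1.22 and 2.54 to 496, 508 and 522 CPM. HES4, a Notch target of the HES family, rose from 0.777, 1.6 and 2.02 to 221, 172 and 246 CPM. The rule that named these 3 genes required groups that did not overlap. ZBTB16 (PLZF), a zinc finger factor of early neural tissue, had 23.9, 27.9 and 26.2 CPM in ectoderm and at most 1 count in an hPSC library. It was at least 109.5-fold higher in ectoderm. Most of the other largest rises also had 3 counts or fewer in each hPSC library. These were the pseudogenes ZNF702P, GUSBP13 and CROCCP3, the zinc finger genes ZNF570 and ZNF483, FSD1L, DNAJC21 (a ribosome biogenesis co-chaperone), SENP7 (a SUMO protease) and SLCO1A2 (an organic anion carrier). Their lower bounds ran from at least 43.6-fold (ZNF570) to at least 381-fold (GUSBP13). In hPSC each of them was counted on 1 transcript, and none had a transcript listed in both tables. The bounds cover counting error only, not this difference between assemblies. ZNF678 rose by 8.39 (log2). The abundant ones were KDM6B, an H3K27 demethylase (1.12, 0.457 and 0.821 to 147, 133 and 146 CPM), LINC01876 (7.06), ZNF260 (6.87) and PGAP1, an enzyme of GPI anchors (6.86).

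These rises rest on different transcripts in the tables. Of the 12 largest, 1 (ZBTB16) had a transcript listed in both, and of the 6 at high level 1 (HES4). For LRP2, 1 transcript was listed for hPSC and 13 for ectoderm, with none in common. Of the 12 largest falls 7 had a shared transcript, and all 7 fell on it, though each cell type was still counted on its own assembly. Among genes without a symbol, ENSG00000276965, listed as a miscellaneous RNA, had 169, 164 and 130.0 CPM in ectoderm, and ENSG00000277067 had 36.1, 35.7 and 29.4 CPM. Both had 0 counts in hPSC. ENSG00000274333 and ENSG00000289527 were at 60.8, 64.3 and 57.5 and 252, 271 and 273 CPM in hPSC and at 3 counts or fewer in each ectoderm library.

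**Figure D1:**
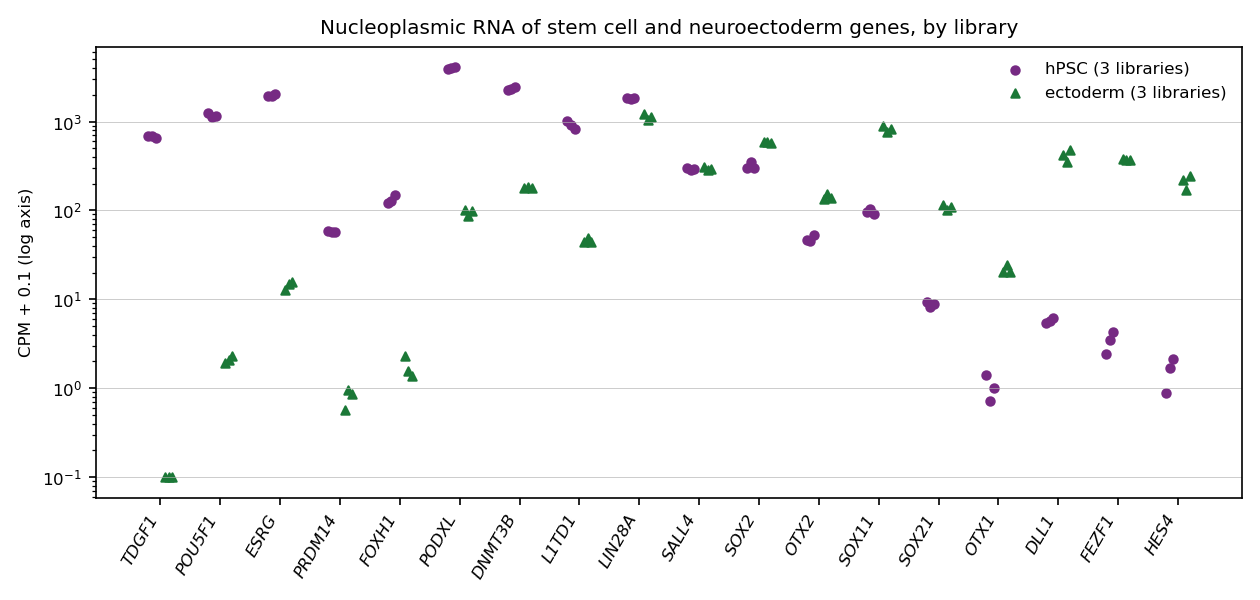
CPM plus 0.1 (log axis) of 18 genes in each of the 3 hPSC (circles) and 3 ectoderm (triangles) nucleoplasm libraries. TDGF1 had no count in ectoderm, SALL4 overlapped between the groups, and FEZF1 stood at 371 to 383 CPM in ectoderm against 2.33 to 4.18 CPM in hPSC.

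The pluripotency list had 25 genes, of which 21 were tested. There were 18 that fell and 1 that rose, against 79.5% of all genes that differed, and 2 did not pass (KLF4 and SALL4). Of the falls 16 were 2-fold or more, and the median was -3.27 against -0.01 over all genes. PODXL, a sialomucin of the stem cell surface, fell from 3916, 4024 and 4057 CPM to 102, 86.8 and 97.7 CPM (log2 -5.45, adjusted p = 4.1e-18). PRDM14, a repressor of differentiation genes, fell from 58.4, 56.4 and 57.7 to 0.461, 0.853 and 0.767 CPM. L1TD1, an RNA-binding protein of stem cells, fell from 1024, 915 and 815 to 43.5, 48.9 and 44 CPM. VRTN (-4.16), TERF1, a telomere protein (-4.13), CD9, a tetraspanin (-3.27), ZFP42 (-2.82) and DPPA4 (-2.58) followed (log2). NANOG, DPPA2, FOXD3 and GDF3 were listed in the hPSC table alone. NANOG stood there at 66.6, 67.6 and 71 CPM, and no fold is given.

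Other genes of the list differed by less than its median. SOX2, which serves both stem cells and neural progenitors, rose from 298, 350.3 and 301 CPM to 593, 582 and 573 CPM (log2 0.81, SE 0.08, adjusted p = 3.8e-08). LIN28A, an RNA-binding protein that blocks let-7 processing, fell from 1856, 1801 and 1834 to 1204, 1054 and 1124 CPM. SALL4, a zinc finger factor, stood at 297, 282 and 293 CPM in hPSC and 309.6, 282 and 289 CPM in ectoderm. Its libraries overlapped (log2 -0.05, SE 0.07, adjusted p = 0.52). FGF2, a growth factor, fell from 239.9, 217 and 213 to 96.1, 84.1 and 81.3 CPM. The POU5F1 and SOX2 values thus moved in opposite directions.

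DNMT3B, a de novo DNA methyltransferase, fell from 2292, 2314 and 2445 CPM to 178, 184 and 179 CPM (log2 -3.77, SE 0.09, adjusted p = 4.9e-17), and the transcript counted changed with the level. In hPSC, ENST00000328111 held 25145, 28633 and 31007 counts. In the ectoderm libraries the same transcript, although listed, held 0 counts in each. The ectoderm counts lay on others, among them ENST00000348286 with 906, 512 and 1075 counts, 34.0% to 39.2% of the gene. Transcripts of the assembly without an Ensembl ID held 54.7% to 60.8%. ENST00000348286 is not in the hPSC table, so its hPSC level is not known. By GENCODE 29 it has 20 exons against 23 and lacks 3 coding exons of ENST00000328111, 249 bases in all, which leaves 2310 of 2559 coding bases in frame. The sequences of these exons are shown because they tell the transcripts apart (GRCh38, plus strand, from the GENCODE transcript sequences).
DNMT3B exon 10, chr20:32793536-32793595: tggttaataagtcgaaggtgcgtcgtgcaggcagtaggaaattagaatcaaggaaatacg
DNMT3B exon 21, chr20:32805338-32805407: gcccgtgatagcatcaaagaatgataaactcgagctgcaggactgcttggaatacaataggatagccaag
DNMT3B exon 22, chr20:32806209-32806327: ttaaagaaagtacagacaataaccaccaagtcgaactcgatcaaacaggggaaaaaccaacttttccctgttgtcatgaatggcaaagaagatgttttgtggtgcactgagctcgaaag

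Read against these exons, most hPSC counts lay on a transcript that holds all 3, and most ectoderm counts with an Ensembl ID on one that holds none of them. Which exons the other transcripts hold was not examined. How the counting divided reads between isoforms is not given in the sources used here, so the split is less certain than the gene sum. Of the other DNA methylation enzymes, DNMT3A fell from 214, 226 and 204 to 81.3, 80.2 and 77.5 CPM and UHRF1, the partner of DNMT1, from 105, 109 and 105 to 33.2, 31 and 31.9 CPM. The log2 difference was -0.38 for DNMT1, the maintenance enzyme, -0.50 for TET1 and -0.60 for TET3. TET2, which oxidises 5-methylcytosine, rose from 0.518, 1.07 and 0.224 to 10.9, 12.9 and 13.2 CPM, with no shared transcript. In all, 1 of 7 tested enzymes rose and 6 fell (median -0.60), against 79.5% of all genes that differed.

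LIN28B gave different directions by transcript. Summed over all its transcripts it fell slightly, from 198, 167 and 189 CPM to 167, 180.1 and 145 CPM with overlapping libraries (log2 -0.24, SE 0.08, adjusted p = 0.013). On the 2 transcripts listed in both tables it stood at 61.1, 47.9 and 37.7 CPM in hPSC and 151, 154 and 132 CPM in ectoderm, a rise of 1.82. On transcripts listed in 1 table it stood at 137, 119 and 152 CPM in hPSC and 15.2, 25.7 and 13.1 CPM in ectoderm.

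**Figure D2:**
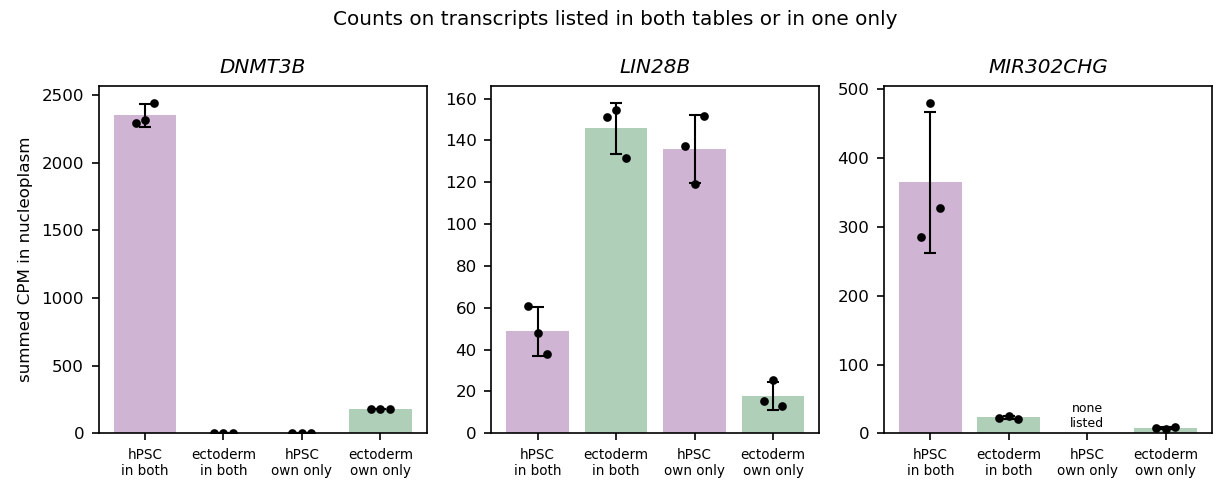
Summed CPM of DNMT3B, LIN28B and MIR302CHG in nucleoplasm on transcripts listed in both tables or in one only (bars, mean of 3 libraries; error bars, SD; points, libraries). DNMT3B counts lay on shared transcripts in hPSC (2350 ± 82.8 CPM) and on ectoderm-only transcripts in ectoderm (179 ± 1.22 CPM).

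All 5 stem cell lncRNAs tested fell by 2-fold or more (median -5.63), against 19.9% of all genes tested. LINC00545 was low and overlapped, and 4 more were listed for hPSC alone. LINC00678 went from 365, 387 and 365 CPM to 8.07, 9.63 and 6.46 CPM. MIR302CHG, the host of the miR-302 and miR-367 hairpins, fell from 286, 481 and 328 CPM to 30.8, 32.4 and 29.5 CPM (log2 -3.63, SE 0.15, adjusted p = 1.8e-13), and as much on the 3 transcripts in both tables (log2 -3.75). It lies at chr4:112646476-112650051 on the minus strand, inside LARP7 on the plus strand, and LARP7 itself was at 36.2 ± 1.57 CPM in hPSC and 34.3 ± 4.92 CPM in ectoderm (SD, n = 3). The mature miRNAs of this host are shown because 4 of them share 1 seed (bases 2 to 8, in capitals; RefSeq, GRCh38.p14).
hsa-miR-302a-3p: uAAGUGCUuccauguuuugguga
hsa-miR-302b-3p: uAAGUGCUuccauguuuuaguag
hsa-miR-302c-3p: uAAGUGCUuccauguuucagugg
hsa-miR-302d-3p: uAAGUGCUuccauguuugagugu
hsa-miR-367-3p: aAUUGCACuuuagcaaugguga
hsa-miR-92a-3p: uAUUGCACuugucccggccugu

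The 4 miR-302 forms share AAGUGCU, and miR-367 shares AUUGCAC with miR-92a. The host of miR-92a, MIR17HG, was listed in the hPSC table alone, at 51.4, 54.7 and 40.5 CPM. The opposite change was seen for MIR34AHG, which hosts the p53-responsive miR-34a.
hsa-miR-34a-5p: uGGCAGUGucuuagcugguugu
MIR34AHG rose from 2.85, 3.51 and 3.81 CPM to 57, 45.5 and 53.7 CPM (log2 3.87, adjusted p = 4.8e-14), with no shared transcript. MIR124-1HG, a host of the neural miR-124, fell from 47.9, 61.4 and 52.8 to 1.69, 0.853 and 1.02 CPM, while MIR124-2HG was listed in the ectoderm table alone at 32.4, 30.2 and 31.9 CPM. Of 13 miRNA host genes tested, 7 rose and 5 fell, against 79.5% of all genes that differed. Only host RNA was counted, and the libraries say nothing of the mature miRNAs.

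Of 38 regulators and markers of neuroectoderm, 19 were tested. There were 13 that rose and 6 that fell, 9 and 2 of them by 2-fold or more (median 0.81, and 1.74 for 15 of them on shared transcripts). Over all genes tested 79.5% differed, and values on shared transcripts lay higher by 0.31 (median shift over genes in both fits). FEZF1, a zinc finger repressor of the anterior brain, rose from 2.33, 3.35 and 4.18 CPM to 383, 371 and 373 CPM (log2 6.75, SE 0.12, adjusted p = 4.0e-18). OTX1, a head homeobox gene, rose from 1.3, 0.61 and 0.896 to 20.1, 24.4 and 20.0 CPM. OTX2, already present in hPSC, rose from 46.3, 45 and 53.1 to 135, 151 and 139 CPM. The SOX genes of neural progenitors rose too. SOX11 went from 95.9, 104 and 90.7 to 896, 770.3 and 826 CPM and SOX21 from 9.24, 8.08 and 8.66 to 114, 101 and 109.6 CPM. ZNF521 (log2 3.05), FABP7 (2.67), POU3F1 (2.30) and CDH2, the neural cadherin (2.13), rose as well. SOX3, NES, an intermediate filament of progenitors, and NCAM1 rose less, by 0.74, 0.58 and 0.48.

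The 6 that fell were ZIC2, ZIC5, HESX1, SFRP1, SFRP2 and CRABP1. SFRP1, a secreted WNT antagonist, was already high in hPSC at 1201, 1216 and 1298 CPM and stood at 639, 565 and 615 CPM in ectoderm. HESX1, an anterior repressor, was low in both, at 5.01, 7.17 and 5.08 and 4.15, 3.05 and 2.94 CPM, and its call was lost on the combined assembly (log2 -0.076) and in TPM its difference was 0.85 in the other direction. Another 13 genes of the list were listed in the ectoderm table alone. Among these were the eye field and forebrain factors PAX6 at 142, 157 and 144 CPM, RAX at 297, 217 and 282 CPM, SIX3 at 164, 160.4 and 166 CPM and LHX2 at 118, 112 and 107 CPM. DLK1, a non-canonical Notch ligand, was the most abundant of them at 4972, 3894 and 4883 CPM (3532 ± 297 TPM, SD, n = 3), TPM being the authors' length-corrected scale. SOX1, FEZF2, HES5, POU3F2, POU3F3 and EMX2 stood in neither table.

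Few markers of posterior neural, endoderm or mesoderm fates were listed. Of 20 midbrain, hindbrain and HOX genes 17 were in neither table, and 1 of 3 tested rose, by 3.88 (log2). GBX2 and EGR2 did not pass the test. Of 14 endoderm genes 13 were in neither table, and FOXA3 fell from 24, 25.2 and 24.6 to 15.7, 14.4 and 16.3 CPM. Among mesoderm genes KDR, a VEGF receptor that stem cells also express, fell from 290.1, 273 and 282 to 5.84, 7.56 and 6.27 CPM, and TBX6 (2.94, 4.88 and 2.91 to 7.76, 6.21 and 8.51 CPM) and PDGFRA rose. In the list for neural crest, placode and surface ectoderm, 4 of 6 tested genes rose (SOX9, TFAP2C, MSX2 and KRT8) and none fell. Over all genes tested 79.5% differed. Another 10 genes of the list were in the ectoderm table alone. KRT18 and GRHL2, an epithelial factor, did not pass (log2 -0.00 and 0.09). SOX10, of the neural crest, stood there at 26.4, 29.6 and 27.9 CPM and DLX5, of the placodes, at 18, 17.5 and 20.7 CPM. TP63, KRT5 and KRT14 of the epidermis were in neither table.

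Of 12 neuron genes, MAP2, a microtubule protein, rose from 3.11, 4.95 and 3.96 to 294, 342 and 282 CPM with no shared transcript. TUBB3, a neuronal tubulin, fell from 88.3, 92 and 96.4 to 21, 22.5 and 23.1 CPM, and DCX and STMN2 were below the filter. Summed CPM over each list ran, in ectoderm and in hPSC, from 957 to 967 and 533 to 603 for crest, placode and surface (mostly KRT8 and KRT18). It ran from 392 to 437 and 92.5 to 101 for neuron, from 21.3 to 23.4 and 4.15 to 5.56 for midbrain, hindbrain and HOX, from 14.4 to 16.3 and 24.0 to 25.2 for endoderm, and from 18.7 to 21.2 and 282 to 295 for mesoderm. The part of such cells in the other results was not tested, and in bulk libraries fewer cells of a type and less RNA per cell cannot be told apart.

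The pathways that the inhibitors block were read next, receptors and transducers first. With 79.5% of all genes tested called, the number called in a list says little by itself. In the Nodal and activin list, 4 of 12 tested genes rose and 7 fell (median -0.32), and only 1 rise but 5 falls were 2-fold or more. Among the receptors the log2 difference was -0.37 for ACVR1B, -1.05 for ACVR2A and -0.27 for ACVR2B, and TGFBR1 stood at 119, 106 and 108 CPM in hPSC and 122, 103 and 115 CPM in ectoderm (adjusted p = 0.74). SMAD2, the transducer, rose from 71.9, 67.1 and 74.6 to 181, 159 and 159 CPM and SMAD3 by 0.73. Falls of 2-fold or more included the co-receptor TDGF1, the partner FOXH1 and ACVR2A. SKIL, a target and SMAD repressor, fell from 124, 121 and 117 to 15.9, 14.6 and 14.1 CPM. NODAL, LEFTY1, LEFTY2, GDF3 and PMEPA1 were listed for hPSC alone, GDF3 at 15.7, 13.2 and 15.4 CPM and NODAL at 1.3, 2.13 and 0.747 CPM.

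In the BMP list 7 of 13 genes rose and 4 fell (median 0.21), against 79.5% of all genes that differed. The ligand BMP4 rose from 2.16, 2.29 and 2.69 to 42.8, 46.3 and 40.2 CPM and BMP7 from 23.8, 25.5 and 24.6 to 39.7, 42.7 and 42.7 CPM. Of the receptors BMPR1A fell from 158, 149 and 158 to 113, 110.2 and 95.3 CPM and BMPR2 rose by 0.65. SMAD5, a BMP transducer, rose from 80.5, 69.2 and 68.1 to 198, 220.4 and 182 CPM, and SMAD1 stood at 17.4, 17.3 and 18.1 CPM in hPSC and 17.7, 19.1 and 14.5 CPM in ectoderm. Another 5 genes of the list were listed in the ectoderm table alone, and no fold is given. SMAD6, NOG and CHRD, also of the list, were not among the genes tested. The feedback genes BAMBI and SMAD7 fell. BAMBI, a decoy receptor, went from 19.3, 18.8 and 19 to 3.84, 2.07 and 2.49 CPM and SMAD7, an inhibitory SMAD, from 4.92, 7.24 and 5.45 to 0.846, 0.853 and 1.98 CPM. The ID genes, common readouts of BMP signal, differed among themselves. ID4 rose from 22.8, 26.2 and 25.8 to 85.3, 75.2 and 78.9 CPM, ID1 rose by 0.21 (log2), ID3 fell from 92.7, 101 and 107 to 85.6, 84.9 and 83 CPM, and ID2 stood at 27.9, 29.8 and 30.5 CPM in hPSC and 30.5, 37.5 and 32 CPM in ectoderm (adjusted p = 0.35).

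In the WNT list 7 of 16 genes rose and 8 fell, against 79.5% of all genes that differed. The median of -0.44 turned to 0.09 on shared transcripts, where values over genes in both fits lay higher by 0.31 (median shift). Receptors moved both ways. FZD5, of the anterior brain and eye, rose from 84.1, 84.2 and 90.3 CPM to 1105, 1020.1 and 1026 CPM and FZD2 from 20.5, 22.3 and 24.6 to 472, 387 and 476 CPM. FZD3 rose by 2.57, while FZD7, a frizzled of stem cells, fell from 481, 495 and 486 to 302, 243 and 305 CPM. FRZB, a secreted antagonist, rose from 9.24, 7.55 and 5.52 to 147, 133 and 141 CPM. Among targets of β-catenin, AXIN2 fell from 23.4, 28.7 and 25.8 to 14.8, 18.9 and 14.1 CPM over all transcripts but was 0.62 higher on its shared one. The ligases that remove frizzleds differed, ZNRF3 by -1.07 and RNF43 by 4.05. The nuclear factors TCF7L1 and TCF7L2 differed by -0.70 and -1.30. LGR4, an R-spondin receptor, rose from 163, 153 and 153 to 521, 491 and 478 CPM. LRP6, the co-receptor, was listed in the ectoderm table alone, a gene most cells express.

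**Figure D3:**
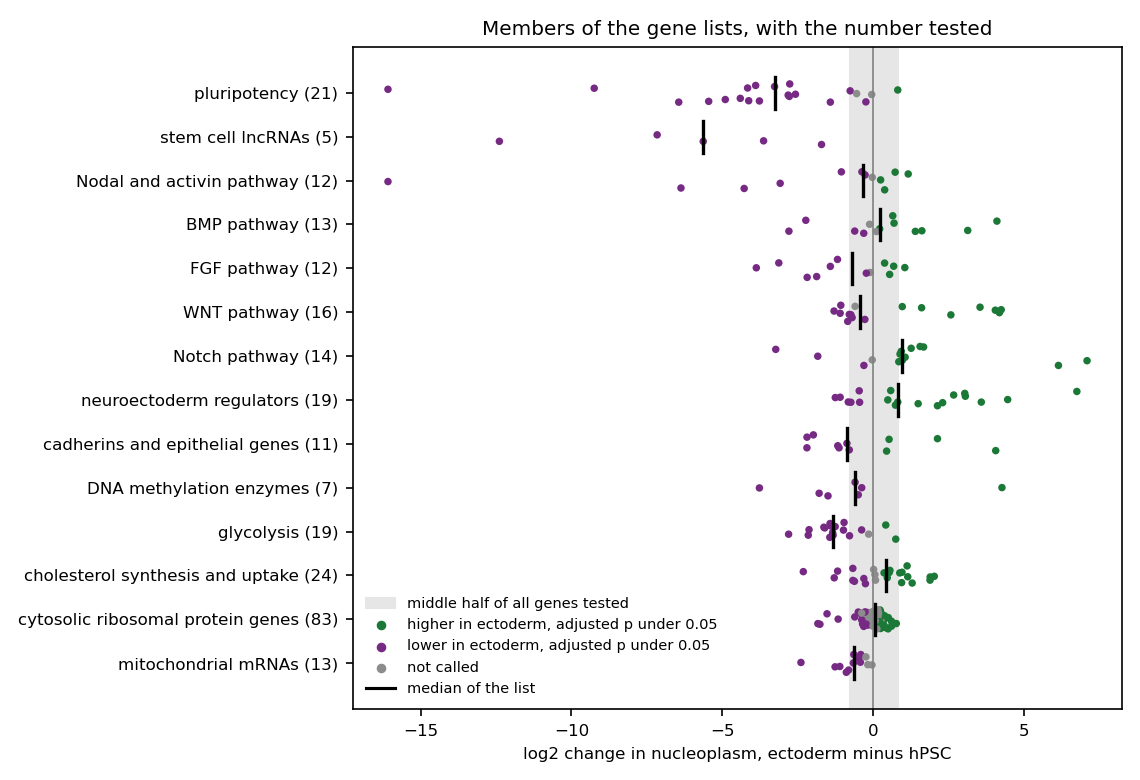
Log2 difference (ectoderm minus hPSC, nucleoplasm) of each tested gene in 14 lists; bars mark list medians and the grey band the middle 50% of all genes tested. The pluripotency median was -3.27, glycolysis -1.35 and Notch 0.95.

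Of 12 FGF pathway genes, 4 rose and 7 fell, against 79.5% of all genes that differed. The median of -0.71 was -0.12 on shared transcripts, where 3 rose and 6 fell. Over genes in both fits, values lay higher by 0.31 there (median shift). SPRY4, a feedback inhibitor, fell from 99.4, 112 and 100.0 to 6.46, 7.07 and 8.44 CPM, and ETV4, a target, from 115, 108 and 109 to 28.4, 23.6 and 24 CPM. Other targets went up: SPRY1 by 1.05, DUSP6 by 0.68 and ETV5 by 0.54. Of the receptors, FGFR2 fell from 161, 164 and 171 to 41.8, 50.8 and 49.1 CPM and FGFR4 from 85.5, 91 and 98.1 to 41.3, 38.4 and 46.1 CPM. FGFR1, the most counted, differed by -0.23 over all transcripts and 0.17 on shared ones. FGF19, a ligand, was low and fell from 8.29, 9.3 and 11.3 to 1.46, 1.83 and 0.448 CPM. FGF8 and FGFR3 were listed in the ectoderm table alone, FGF8 at 53.2, 39.6 and 49.5 CPM.

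Notch was the signalling list with the highest median, 0.95, with 10 of 14 genes up and 3 down (1.55 on shared transcripts, for 9 genes). Over all genes tested 79.5% differed, and values on shared transcripts lay higher by 0.31 (median shift over genes in both fits). The ligand DLL1 rose from 5.35, 5.56 and 6.05 CPM to 424, 351 and 478 CPM (log2 6.14, SE 0.13, adjusted p = 3.2e-17). JAG1 rose from 109, 117 and 115 to 393, 366 and 376 CPM, while DLL3, an inhibitory family member, fell from 14.6, 12.7 and 16.9 to 5.38, 2.44 and 4.6 CPM, a call lost on the combined assembly (log2 -0.20). The receptors NOTCH1, NOTCH2 and NOTCH3 rose by 0.93, 1.06 and 0.85. Of the targets, HES4 rose as above and HES1 by 1.55, and HEY2 fell from 8.9, 7.93 and 8.51 to 0.846, 1.22 and 0.831 CPM. LFNG, a glycosyltransferase of Notch receptors, rose by 1.26, and NRARP, a feedback target, by 0.89.

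Of 11 cadherin and epithelial genes, 4 rose and 7 fell (median -0.87), against 79.5% of all genes that differed. CDH1, E-cadherin, fell from 872, 894 and 858 CPM to 403, 400.3 and 449 CPM while CDH2, N-cadherin, rose from 47.2, 52.1 and 49.1 to 229, 216 and 234 CPM. By the authors' TPM, which allow levels of genes to be compared, CDH1 was at 233 ± 17.7 TPM in hPSC and 126 ± 9.15 TPM in ectoderm, and CDH2 at 16 ± 1.68 and 83 ± 2.5 TPM (SD, n = 3). CDH1 thus stayed the higher of the pair. CDH11 rose from 8.12, 8.23 and 7.84 to 143, 142 and 138 CPM with no shared transcript. EPCAM, an adhesion molecule, fell from 332, 319.7 and 308 to 81.2, 83.4 and 88.8 CPM and CLDN6, a tight junction protein, from 891, 913 and 1003 to 217, 207 and 217 CPM. ESRP1 and ESRP2, splicing factors of epithelia, differed by -1.17 and -2.20, CDH3 (P-cadherin) by -0.87 and VIM (vimentin) by 0.53.

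Glycolysis moved together: 16 of 19 genes fell, 12 by 2-fold or more, and 2 rose (median -1.35), against 79.5% of all genes that differed. HK2, hexokinase 2, fell from 131, 131 and 129.9 to 19, 20.5 and 19.4 CPM. LDHA, lactate dehydrogenase A, fell from 808, 718 and 801 to 176, 190.0 and 192 CPM. HK1, ENO1, PKM and LDHB, also enzymes of the pathway, differed by -1.64, -1.41, -1.26 and -1.43 (log2). GAPDH, often used as a reference gene, fell from 3155, 3124 and 3506 to 1728, 1731 and 1712 CPM. The rises were SLC2A3, the high-affinity glucose carrier (0.42), and PFKM (0.75). PFKL stood at 131, 127 and 149 CPM in hPSC and 123, 124 and 136 CPM in ectoderm (adjusted p = 0.092).

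Of 24 genes of cholesterol synthesis and uptake, 13 rose and 8 fell (median 0.41), against 79.5% of all genes that differed. STARD4, a sterol carrier, rose from 30.1, 27.4 and 33.1 to 132, 141 and 114 CPM, and INSIG1, a sensor partner, from 26.1, 24.3 and 28.4 to 105, 101 and 98.7 CPM. HMGCS1, which acts early in the pathway, and SREBF2, its main transcription factor, rose by 1.29 and 0.96. SQLE, squalene epoxidase, stood at 125, 119 and 129.8 CPM in hPSC and 134, 131 and 131 CPM in ectoderm (adjusted p = 0.86). Other enzymes fell, FDPS from 118, 113 and 109 to 70.0, 75.3 and 77.3 CPM and TM7SF2 from 47.2, 54 and 52 to 38.1, 33.9 and 32.3 CPM.

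Nuclear RNAs and snoRNA hosts were mixed, with 3 of 16 up and 8 down, against 79.5% of all genes that differed. Their median of -0.30 was 0.45 on shared transcripts. Values over genes in both fits lay higher by 0.31 on shared transcripts (median shift). MALAT1, a nuclear speckle RNA, rose from 911, 1100.0 and 616 CPM to 2220.0, 1821 and 2209 CPM. MEG3, an imprinted lncRNA next to DLK1, rose from 1.12, 0.534 and 1.64 to 119, 137 and 128 CPM (log2 6.78, SE 0.17, adjusted p = 2.2e-16). SNHG14, the long host in the Prader-Willi region, fell from 1702, 1707 and 1522 CPM to 236, 238 and 216 CPM. GAS5 (-0.05) and ZFAS1 (-0.95), hosts of snoRNAs, were higher in ectoderm by 0.88 and 0.69 on shared transcripts and also in TPM.

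The same comparison on transcripts listed in both tables tested 10365 genes, and 3461 were higher and 3633 lower. These transcripts too were counted on each cell type's own assembly. Its values lay higher by 0.31 (log2, median over genes in both fits), and why was not tested. Of the 2760 genes at least 2-fold higher in ectoderm, 1617 could be tested there, and 1193 of these passed in the same direction (73.8%) and 103 in the opposite one. Of the 2610 at least 2-fold lower, 2060 could be tested, and 1892 passed the same way (91.8%) and 12 the opposite way. The difference between these shares was not tested. Zinc finger genes were counted both ways. Of 377 protein coding genes named ZNF, 208 rose and 78 fell (median 0.49), against 79.5% of all genes that differed. On shared transcripts 105 of 307 rose and 67 fell (median 0.17), a difference that was not tested.

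**Figure D4:**
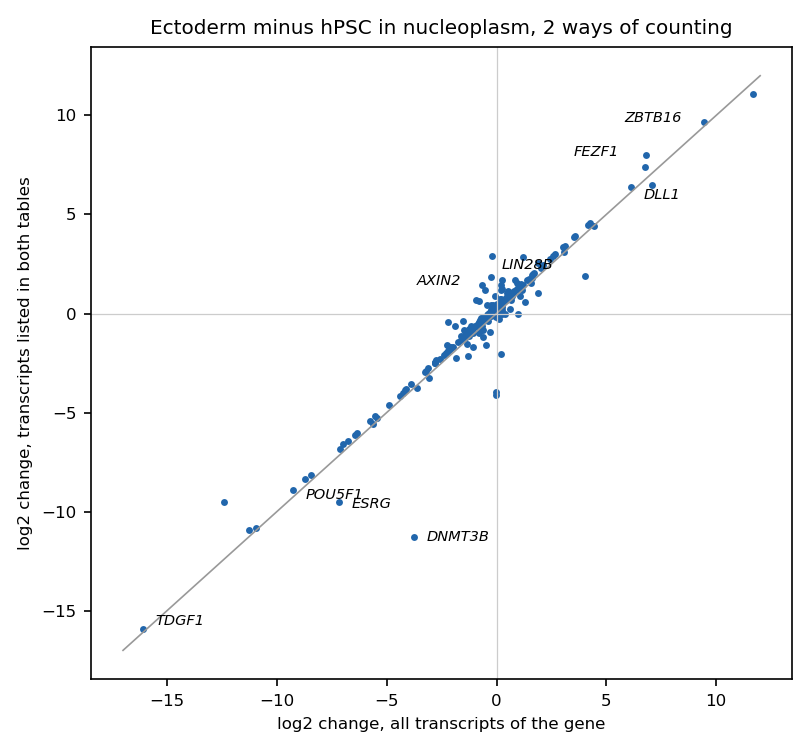
Log2 difference (ectoderm minus hPSC, nucleoplasm) over all transcripts of a gene (x) and over transcripts listed in both tables (y) for 282 named genes and list members; the line marks equal values. DNMT3B lies far below the line (-3.77 and -11.28), and LIN28B changes sign (-0.24 and 1.82).

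Genes listed in 1 table only have levels but no fold, and 4133 were in the ectoderm table alone and 1535 in the hPSC table alone. They took 3.88% to 4.53% of the ectoderm counts and 1.23% to 1.33% of the hPSC counts. After DLK1, the most abundant in ectoderm were PRTG, a protein of early neural tube (1416, 1280.2 and 1272 CPM), and IGFBP5 (589, 587 and 601 CPM). The set also held genes that most cells express, such as TAOK1 (198, 214 and 168 CPM) and NIPBL (133, 132 and 120.2 CPM), so a missing row is no measure of absence. In hPSC they were led by GUCY2C-AS1 (293, 297 and 308 CPM) and LINC01194 (211, 211 and 209 CPM), both noncoding, then PDZD4, a protein coding gene (189.7, 203 and 200.2 CPM), and the noncoding LNCPRESS2 (192, 194 and 176 CPM). HPAT5, a lncRNA of human stem cells, stood at 148, 152 and 134 CPM.

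Whether these differences were particular to nucleoplasm was tested against chromatin, the pellet of the same lysis, as a difference of differences over 12 libraries. Of 13290 genes, 1204 passed (9.06%), with 597 relatively higher and 607 relatively lower in nucleoplasm. Of the 5370 genes with a called 2-fold difference in nucleoplasm, 478 did (8.90%). The count without 1 library ran from 575 (ectoderm chromatin 1) to 2978 (hPSC chromatin 3). It also fell without ectoderm chromatin 2 (709), ectoderm nucleoplasm 1 (670) or 3 (692), or hPSC nucleoplasm 1 (637) or 2 (770). In TPM it was 488 and on shared transcripts 497. With libraries of the same number paired within each cell type it was 812, without ZNF883, KC6 and XRN1, which are named below.

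For the genes given in full here, the hPSC chromatin libraries were the group apart. CCNG1, a p53 target, had 371, 312 and 345 CPM in hPSC nucleoplasm and 379.8, 354 and 342 CPM in ectoderm nucleoplasm. On chromatin it had 1506, 1293 and 918 CPM in hPSC and 239, 232 and 242 CPM in ectoderm. The difference of differences was 2.44 (SE 0.21, adjusted p = 1.2e-04). PRR11, a cell cycle gene, had 61.8, 65.6 and 48.5 CPM in hPSC nucleoplasm against 78.9, 75.7 and 74 CPM in ectoderm nucleoplasm. Its chromatin values were 467, 373 and 424 CPM in hPSC against 85.8, 72.8 and 91.5 CPM in ectoderm (difference 2.71). IDS, a lysosomal sulfatase, moved in opposite directions. In nucleoplasm it went from 40.4, 40.8 and 39.4 CPM in hPSC to 84.6, 91.4 and 76.2 CPM in ectoderm, and on chromatin from 192, 173 and 173 to 76.8, 70.1 and 81.1 CPM. RSU1 (2.26), TFPI (2.48) and ZNF883 (2.84) also stood relatively higher. On shared transcripts PRR11, CCNG1, IDS and RSU1 passed as well, with 2.58, 2.26, 2.29 and 2.04, while ZNF883 gave 2.65 at an adjusted p of 0.059 and TFPI had no shared transcript.

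On the other side, NEAT1, the scaffold RNA of paraspeckles, went from 10.2, 11.3 and 8.81 CPM in hPSC to 33.8, 19 and 30.7 CPM in ectoderm in nucleoplasm. On chromatin it went from 1.09, 1.18 and 2.29 to 20.8, 22.7 and 26.9 CPM (difference -2.50). RN7SL1, the RNA of the signal recognition particle, had 460.1, 1496 and 994 CPM in hPSC nucleoplasm against 13.9, 30.5 and 15.7 CPM in ectoderm nucleoplasm, and overlapped on chromatin (35.4, 68.9 and 17.9 CPM in hPSC against 45.9, 28 and 86.1 CPM in ectoderm). Its difference was -6.04 (SE 0.80, adjusted p = 0.0011). Its 3 hPSC libraries varied widely. Its near-identical copy RN7SL2 was in the ectoderm table alone, so the split is uncertain. NEAT1, KC6 (-3.34), MIR34AHG (-3.08), XRN1 (-2.55) and AKAP9 (-2.48) had no shared transcript. In hPSC chromatin KC6 had 0, 0.221 and 0 CPM, XRN1 0.192, 0.588 and 0 CPM and AKAP9 1.35, 1.4 and 0.079 CPM. MIR34AHG had 0.384, 0.662 and 2.61 CPM there. The sizes of these differences, and that of NEAT1, also low there, are therefore uncertain. Of 83 cytosolic ribosomal protein genes 37 differed, all relatively higher in nucleoplasm (median 0.52, against 0.04 over all genes).

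**Figure D5:**
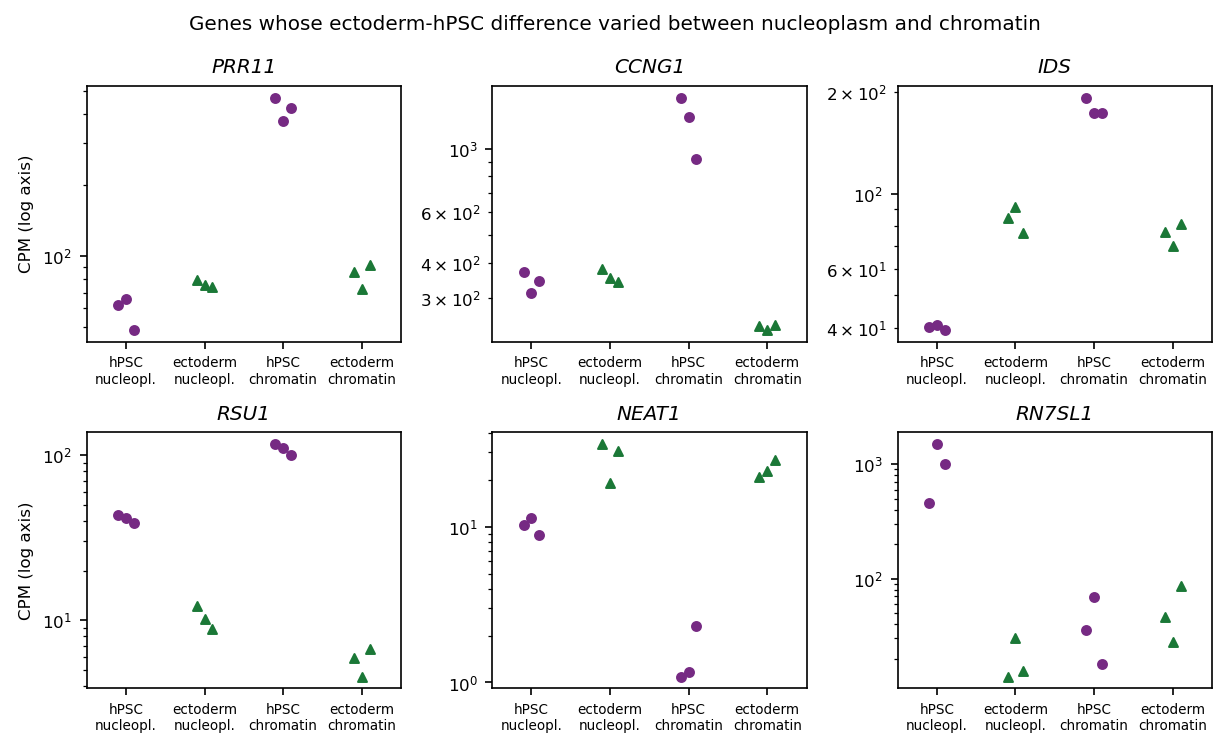
CPM (log axis) in the 3 libraries of hPSC (circles) and ectoderm (triangles) in nucleoplasm and chromatin for 6 genes. PRR11 and CCNG1 differed on chromatin far more than in nucleoplasm, and RN7SL1 was high only in hPSC nucleoplasm (460 to 1496 CPM).

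Against cytoplasm, 3452 of 13275 genes passed (26%), 1216 relatively higher and 2236 relatively lower in nucleoplasm. Without TMM scaling the split was 1581 and 1753. Of the 5370 genes 1404 differed (26.1%). Relatively lower were 9 of 11 cadherin and epithelial genes, 9 of 16 WNT genes, 7 of 12 Nodal genes, 6 of 14 Notch genes and 11 of 24 cholesterol genes. The count was 1 of 12 for FGF genes, 2 of 13 for BMP genes, 4 of 19 for glycolysis genes and 0 of 83 for cytosolic ribosomal protein genes. For pluripotency it was 6 of 21 and for neuroectoderm 5 of 19, against 2236 of 13275 over all genes. The log2 difference of differences was -1.47 for PODXL, -1.86 for EPCAM and -1.77 for SFRP1. SOX2, POU5F1 and OTX2 gave differences of -0.20, -0.32 and -0.02, which did not pass (adjusted p = 0.33, 0.38 and 0.92). All 13 mitochondrial mRNAs were relatively lower (median -2.03), but they are not RNA of the nucleus. Mitochondrial genes took 0.44% to 0.62% of the counts in hPSC cytoplasm and 1.03% to 1.59% in ectoderm cytoplasm.

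RN7SL1 had 879.9, 1065 and 534 CPM in hPSC cytoplasm and 542, 1121 and 1402 CPM in ectoderm cytoplasm, with overlap (difference -6.03, adjusted p = 4.9e-06). CRNDE, a lncRNA, gave 2.28 over all transcripts and -0.57 on shared ones. VWF rose in nucleoplasm from 1.81, 1.07 and 0.971 to 13.2, 14.1 and 17.5 CPM and in cytoplasm from 1.58, 1.47 and 1.15 to 2.04, 2.98 and 2.83 CPM (difference 2.55). SMCHD1, a chromatin protein of X inactivation, had 0.777, 2.06 and 0.747 CPM in hPSC nucleoplasm and 94.7, 91 and 80.3 CPM in ectoderm nucleoplasm, against 0, 0.0737 and 0 CPM and 86.3, 66.6 and 66.3 CPM in cytoplasm. Its fitted difference was -4.82 from counts and 0.19 in TPM, and hPSC cytoplasm had at most 1 count in a library, so its size is uncertain. In TPM 1716 genes passed and on shared transcripts 1555.

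Endoderm nucleoplasm gave a reference from another derived cell type, H1 held for 5 days in RPMI with GlutaMax, amino acids, β-mercaptoethanol, low serum, WNT3A and Activin A. Against it, 8863 of 11233 genes listed in all 3 tables differed (78.9%), 4369 higher and 4494 lower in ectoderm. Without TMM the median moved by 0.70 and 7212 of 9664 called genes were higher, and in TPM 5622 of 8765, so small differences here depend on the scaling. POU5F1 was at 236, 289 and 265 CPM in endoderm, above ectoderm and below hPSC. PODXL (-7.02) and KDR (-5.72) were also lower in ectoderm than in endoderm, TDGF1 stood at 201, 211 and 188 CPM there, and 12 of 16 pluripotency genes tested were lower in ectoderm. LIN28A, LIN28B, SALL4 and USP44 were higher in ectoderm. Of neuroectoderm genes 8 of 11 were higher, OTX1 by 4.75 and OTX2 by 3.64, as was FZD5 by 5.17. BMP genes were lower in 10 of 12 and cadherin and epithelial genes in 10 of 11, with CDH2 at 1544, 1381 and 1481 CPM and FN1 at 56288, 49241 and 50132 CPM in endoderm.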

How the data were processed

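RNA-seq libraries of nucleoplasm, chromatin and cytoplasm were made with a NEBNext Ultra kit and sequenced on a NovaSeq, per the labels' protocols. The authors deposited counts per transcript on an assembly for each cell type and on a combined one, and the same as TPM; the submitters' processing notes name STAR, RSEM and hg38, and whether the counts are rounded estimates and whether they used strand is not given in the sources used here. Rows were summed per Ensembl gene without version, and transcripts were matched between tables by Ensembl transcript ID. Rows without an Ensembl gene held 4.68% to 7.73% of the hPSC and 3.16% to 6.22% of the ectoderm counts and were left out. The ectoderm tables hold 1 column of per-sample values that matched no sample and was not used. CPM are counts divided by the library's total over genes. Y-linked genes and XIST are not named.

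Genes listed in both tables and passing edgeR's filter (minimum count 10) were tested with edgeR's quasi-likelihood test (edgeR 4.0.16, R 4.3.3) with TMM scaling, 2-sided, and p-values were adjusted by Benjamini-Hochberg over all genes tested; a gene was called at an adjusted p under 0.05, and the scripts were tested on simulated data. Fractions were compared as a difference of differences, and ectoderm with endoderm in a fit of the 9 nucleoplasm libraries of hPSC, ectoderm and endoderm. Every adjusted p in the text comes from these fits. Where all libraries of a group had 3 counts or fewer, the fold is a lower bound against a floor of 3 counts per library. Such a bound covers counting error only, not the difference between assemblies. Alternatives were DESeq2 1.42.0, other scalings, no filter, limma 3.58.1 on log2(TPM + 1) or log2(TPM + 0.1), shared transcripts only, the combined assembly, no mitochondrial genes, all 10 nucleoplasm libraries, a replicate block (over all groups or within a cell type) and each library left out. Gene types and positions are those of GENCODE 29, which gave a type for 97.64% of genes in both tables.

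The members and the 22 gene lists were chosen with earlier results of these data known. Genes outside the lists were named by rule. They needed a call, at least 10 CPM in the higher group and groups that did not overlap; the 12 largest rises and falls, 6 more each way at 100 CPM or more and 2 each way without a symbol were taken. For each fraction comparison, 6 each way were taken. Genes listed in 1 table were named by level.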

Additional observations from a re-analysis of the deposited data

Results flagged for a closer look

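The genes below were picked out because their ectoderm-hPSC difference in nucleoplasm differed from that in another fraction, by edgeR's test of the difference itself. Against chromatin, the log2 difference of differences was 2.84 for ZNF883, 2.71 for PRR11, 2.48 for TFPI, 2.44 for CCNG1, 2.29 for IDS and 2.26 for RSU1. It was -6.04 for RN7SL1, -3.34 for KC6, -3.08 for MIR34AHG, -2.55 for XRN1, -2.50 for NEAT1 and -2.48 for AKAP9. ZNF883, KC6 and XRN1 lost the call with libraries of the same number paired within each cell type. In hPSC chromatin KC6, XRN1, AKAP9, NEAT1 and MIR34AHG had at most 0.221, 0.588, 1.4, 2.29 and 2.61 CPM, so the sizes of their differences are uncertain. Among the genes with the largest changes in nucleoplasm, LRP2 (-1.86) and EPHA4 (-1.49) rose less in nucleoplasm than on chromatin and HES4 (1.39) rose more. In hPSC nucleoplasm LRP2, EPHA4 and HES4 had at most 0.597, 2.54 and 2.02 CPM, so these sizes are uncertain as well. LRP2 and EPHA4 had no shared transcript.

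Against cytoplasm, the difference was -6.03 for RN7SL1, -5.74 for MT-ATP8, -4.82 for SMCHD1, -4.41 for MTCO1P12, -4.34 for FAM171B and -4.18 for SMG1P3. SMCHD1 and FAM171B had at most 1 count in an hPSC cytoplasm library, and in TPM they gave 0.19 and 0.44, so these fitted values are no measured sizes. SMG1P3 had 0, 0 and 1.58 CPM in hPSC cytoplasm, so its size is uncertain too. MT-ATP8 had 31.4, 187 and 26.8 CPM in the hPSC nucleoplasm libraries, so 1 library stands apart. Relatively higher in nucleoplasm were TSPEAR-AS2 (8.32), VWF (2.55), CPNE9 (2.52), MRPL55 (2.30), CRNDE (2.28) and MEF2B (2.14). TSPEAR-AS2 had no count in ectoderm cytoplasm, so its fitted value depends on the prior count, and it was 0.77 with no call on the combined assembly. CPNE9 had 0.0703, 0.0608 and 0.109 CPM in ectoderm cytoplasm, so its size is uncertain too. On shared transcripts MRPL55 gave 1.31 and lost its call (adjusted p = 0.14, edgeR), and CRNDE gave -0.57. SLCO1A2 (-3.60), EPHA4 (-2.03), PGAP1 (-1.85), B3GALT5 (-1.18) and POLR3G (-0.90) were relatively lower, and HES4 (1.16) relatively higher. SLCO1A2 had 3 counts or fewer in each hPSC nucleoplasm library (SE 1.25), so its value is no measured size. EPHA4, PGAP1 and HES4 had at most 2.54, 2.06 and 2.02 CPM there, so their sizes are uncertain too. ENSG00000276965 (10.67) and ENSG00000277067 (7.78) had no count in hPSC nucleoplasm, so their fitted values depend on the prior count and are no bounds.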

How the results depend on the processing

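The number of genes that differed between ectoderm and hPSC nucleoplasm was 10407. It lay between 8501 (all 10 nucleoplasm libraries, fewer genes tested) and 10983 (combined assembly) under all alternatives other than shared transcripts (7094 of 10365) and a 2-fold change (5370), and between 9988 and 10368 with 1 library left out. DESeq2 gave 10124. Against chromatin the count was 370 with a 2-fold change, 488 in TPM and 497 on shared transcripts, with values lower by 0.18 there (median log2 shift -0.18), and it ran from 575 to 2978 with 1 library left out. Against cytoplasm it was 1324 with a 2-fold change, 1716 in TPM and 1555 on shared transcripts, and against endoderm 4333 with a 2-fold change. Why these counts moved was not tested, except that shared transcripts leave fewer genes and a 2-fold rule is stricter by construction. Library totals without TMM moved the median by 0.11, TPM by 0.21 (0.23 with TPM + 0.1), and upper-quartile factors by 0.11 against endoderm.

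With a replicate block the counts were 10269, 1380 (chromatin), 3035 (cytoplasm) and 8801 (endoderm), and no call of a named gene changed. Ectoderm and hPSC nucleoplasm libraries with the same number did not deviate together (r of -0.02, -0.03 and 0.01 over 13095 genes), nor did ectoderm and endoderm ones (-0.05, -0.06 and -0.01). Between nucleoplasm and chromatin r was 0.07, 0.13 and 0.08 in ectoderm, where each library correlated best with its own number, and 0.10, -0.04 and 0.02 in hPSC. Between nucleoplasm and cytoplasm it was 0.01, -0.04 and 0.10 in ectoderm and -0.05, 0.03 and 0.09 in hPSC. In none of these sets were all 3 above 0.1, a cut chosen here, so the numbers were not taken to pair libraries. For ectoderm nucleoplasm and chromatin a pairing remains possible. A replicate block within each cell type, chosen after seeing the data, gave 812 genes against chromatin, without ZNF883, KC6 and XRN1, and 3126 against cytoplasm.

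Of 3766 values of 222 named gene results under the alternatives, 3646 kept direction and call, 77 lost the call, 13 gained it and 30 changed sign. On shared transcripts the log2 difference was 1.82 for LIN28B, 0.26 for SALL4, 0.31 for KRT18, -0.032 for SMAD4, -0.026 for FST, 0.62 for AXIN2, 0.091 for CTNNB1, 0.17 for FGFR1, 0.031 for RBPJ, 0.88 for GAS5, 0.69 for ZFAS1, 0.27 for MT-CO1 and -0.20 for SERF1B. In TPM it was 0.018 for LIN28B, 0.19 for SALL4, 0.85 for HESX1, 0.26 for KRT18, 0.36 for SMAD1, 0.71 for GAS5 and 0.73 for ZFAS1, and with TPM + 0.1 0.018 for LIN28B, 0.19 for SALL4, 1.02 for HESX1, 0.26 for KRT18, 0.39 for SMAD1, 0.71 for GAS5 and 0.74 for ZFAS1. Over genes in both fits, these values lay higher by 0.31 on shared transcripts and by 0.21 in TPM (median shifts). Small changes of sign are therefore not read as results about single genes. For the nucleoplasm-cytoplasm difference, SMCHD1 gave 0.19 and FAM171B 0.44 in TPM, and CRNDE -0.57 on shared transcripts. The cause was not tested. Depth limits genes with few counts, which the floors bound.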

Other observations

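Of 12 tested immediate early genes, which answer to signals and handling within minutes, 7 rose and 2 fell (median 0.34), against 79.5% of all genes that differed. BTG2, an antiproliferative p53 target, went from 24.2, 24.2 and 26.2 CPM in hPSC to 142, 139 and 142 CPM in ectoderm, with no overlap. FOSB, DUSP1 and JUN rose by 2.36, 1.14 and 0.35 (log2), FOS stood at 20.1, 20.3 and 23.1 and 23.5, 21.1 and 22.8 CPM, and MYC fell from 51.7, 58.8 and 61.1 to 13.1, 15.4 and 14.6 CPM.

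Of 83 cytosolic ribosomal protein genes, 27 rose, 18 fell and 38 did not pass (median 0.07), against 79.5% of all genes that differed. On shared transcripts 48 rose and 7 fell (median 0.38). Values on shared transcripts lay higher by 0.31 over genes in both fits (median shift), so this rise is not read as particular to these genes. Against endoderm 77 of 83 were higher in ectoderm, with a median of 1.16. Of 13 mitochondrial mRNAs, found in these libraries though not RNA of the nucleus, 10 fell and none rose (median -0.64). MT-CYB (cytochrome b) and MT-CO3 differed by -1.11 and -0.89 (log2), while MT-CO1 stood at 30111, 30882 and 34023 CPM in hPSC and 30395, 31153 and 35074 CPM in ectoderm with overlap. Among pseudogenes 86 of 207 rose and 71 fell (median 0.11), against 79.5% of all genes that differed.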
